A study of Mus musculus with 8 samples.

Results

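In C3H10T1/2 cells, 342 binding sites of the transcription factor GATA2 lay between genes, within 100 kb of one, at positions where the 3T3-L1 list had no peak. C3H10T1/2 is a mouse embryonic fibroblast line that can form fat, bone, cartilage and muscle cells, and 3T3-L1 is a mouse fibroblast line committed to the fat lineage. The sites were chosen from the deposited peak lists by 3 conditions. They overlapped no 3T3-L1 peak by even 1 bp, their centre lay outside the body of every protein-coding RefSeq gene, and that centre was at most 100 kb from the nearest gene boundary. A cluster of 20 peaks on chromosome 11 was left out beforehand, 19 of them without a 3T3-L1 overlap. The 342 sites were 22.0% of the 1557 C3H10T1/2 peaks and 33.6% of the 1017 that had no 3T3-L1 overlap. Overlap with 3T3-L1 peaks and distance to genes chose the sites, so comparisons of those values are a description with no p-value.

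The labels give 4 groups of 2 libraries: for each line, chromatin immunoprecipitated for GATA2, and input chromatin. All cells were ATCC cultures at passages 4 to 6, and no treatment, differentiation step or genetic change is labelled for any group. Each immunoprecipitation used about 100 µg of sonicated chromatin and 10 µg of an antibody against GATA2, and 100 to 150 ng of DNA pooled from individual immunoprecipitations went into a library. The files hold 1 list of peak positions per line (1557 for C3H10T1/2 and 2445 for 3T3-L1), with no score, height or read count, so the depth is unknown, no value has a replicate, and marker genes of the lines could not be checked. A site in 1 list alone is a difference between calls, and signal below the calling threshold in the other line was not measured.

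GATA2 is a zinc finger protein that binds DNA at the core letters GATA and is best known for keeping blood precursors from maturing. In the fat lineage it is known to hold preadipocytes back from becoming fat cells. Factors of this kind often bind far from gene starts, at enhancers, and an intergenic site can act on a gene other than its nearest one.

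A few sites did reach a gene's start, and these are the ones whose sequence could be read. RefSeq promoter windows (GRCm38.p6, which is mm10; 250 bases before to 50 after a gene's start) overlapped 10 of the 342 sites, and 6 of these sites lay in the window over most of their length. The part of each of these 6 that lies before the gene's start is printed 5′ to 3′ on the strand of the gene. Capitals mark matches on either strand to the GATA motif (AGATAA or TGATAA), the AP-1 motif (TGANTCA), the GC box (GGGCGG) and the CCAAT box (CCAAT). None of the other four sites reached more than 47 bp into its window.
Mecom, chr3:30509760-30509870, minus strand: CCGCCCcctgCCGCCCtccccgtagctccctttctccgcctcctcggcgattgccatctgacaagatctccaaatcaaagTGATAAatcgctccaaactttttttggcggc
Vgll3, chr16:65814963-65815094, plus strand: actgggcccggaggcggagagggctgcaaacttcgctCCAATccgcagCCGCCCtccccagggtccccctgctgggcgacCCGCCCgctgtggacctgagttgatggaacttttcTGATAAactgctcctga
Gm40804, chr10:127925242-127925451, minus strand: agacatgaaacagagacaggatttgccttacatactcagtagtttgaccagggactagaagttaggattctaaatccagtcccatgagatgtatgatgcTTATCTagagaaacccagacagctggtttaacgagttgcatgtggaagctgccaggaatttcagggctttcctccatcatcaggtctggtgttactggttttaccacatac
Ddx24, chr12:103425848-103426007, minus strand: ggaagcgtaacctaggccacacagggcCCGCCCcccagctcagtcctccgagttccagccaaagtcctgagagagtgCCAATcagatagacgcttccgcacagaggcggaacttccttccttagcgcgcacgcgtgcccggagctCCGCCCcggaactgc
B3galnt1, chr3:69598961-69599035, minus strand: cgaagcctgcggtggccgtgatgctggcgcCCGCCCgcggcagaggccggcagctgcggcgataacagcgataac
Vps18, chr2:119288548-119288733, plus strand: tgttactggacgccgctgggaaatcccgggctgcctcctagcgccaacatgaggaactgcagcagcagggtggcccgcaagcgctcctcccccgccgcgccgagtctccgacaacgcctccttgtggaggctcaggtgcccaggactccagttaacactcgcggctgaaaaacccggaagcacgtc

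The GATA motif was in the printed part of 3 of these 6 promoters, at Mecom, Vgll3 and Gm40804. The core letters GATA outside that motif were not marked or counted, and they occur in the printed parts at B3galnt1 and Ddx24. Mecom encodes the zinc finger factor EVI1, known from blood stem cells and leukaemia, and its site (30509702 to 30509870) covered the gene's higher coordinate, which is its start. Vgll3 encodes a cofactor of TEAD factors, and Gm40804 is a long non-coding RNA gene whose site had Sdr9c7 as its nearest coding gene. Over whole windows, 3 of the 10 promoters held the GATA motif, 2 the AP-1 motif, 6 the GC box and 4 the CCAAT box. Among all 32851 promoter windows of 300 bases the shares were 18.6%, 7.81%, 35.7% and 37.4%. The printed parts at Vps18, B3galnt1, Vgll3 and Ddx24 held 64.4% to 72.0% G and C, against a median of 52.4% over the 250 bases before all starts, while those at Mecom and Gm40804 held 56.8% and 43.8%. Each printed part covers only some of those 250 bases, so the stretches compared are unlike. A match is a description of letters and no measure of binding at that position.

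Within the 100 kb limit set by the rule, most of the sites lay more than 10 kb from a gene boundary. The distance from a site's centre to the nearest boundary of a protein-coding gene had a median of 28.6 kb (quartiles 10.9 and 53 kb, range 12.5 bp to 99.0 kb). Within 1 kb there were 23 sites (6.73%, 95% exact binomial interval 4.31 to 9.92), between 1 and 10 kb 57, between 10 and 30 kb 100, between 30 and 50 kb 69 and between 50 and 100 kb 93. The intervals here cover counting error over sites only. At the outer limit of the rule, the 5 sites just inside lay 97.9 to 99.0 kb from Kif16b, Emcn, Mocs2, Adamts5 and Snx13, and the 5 unshared sites just outside lay 101 to 104 kb from Agr3, Sem1, Tcp10c and Fzd8.

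Genes with a site nearest to a boundary included B3galnt1 (12.5 bp), Mecom (26.5 bp), Ddx24, Scrn2, Ppp1r1b, Vps18, Mgp, Vgll3, Tmem267, Lmnb1 and Slc7a12 (270 bp). Mgp encodes matrix Gla protein, an inhibitor of calcification made by cartilage and vessel walls, and its site (chromosome 6, 136875819 to 136876092) lay 132 bp from the gene with a 3T3-L1 peak 22.1 kb away. Ppp1r1b encodes a regulator of protein phosphatase 1 and Lmnb1 the nuclear envelope protein lamin B1. From the site at the RNA helicase gene Ddx24 the closest 3T3-L1 peak was 5250 kb off, but from that at Scrn2 it was 4.66 kb off. Sites this close to a gene were thus found both beside a 3T3-L1 peak and far from any.

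Strand could be matched in the promoter table for the nearest gene of 251 sites, and the nearest boundary was the gene's start for 157 of them (62.5%, interval 56.2 to 68.6). Within 1 kb it was the start for 14 of 16 (87.5%, 61.7 to 98.4), and in the 4 wider bands it was 56.2% to 63.8%. The same share was 57.2% (49.2 to 65.0) of the 159 matched sites in C3H10T1/2 that were shared with 3T3-L1 and lay in the same gene window, and 69.7% (66.0 to 73.2) of 663 matched 3T3-L1-only sites. Without the sites in dense blocks of 3T3-L1 peaks the last value was 57.4% (52.4 to 62.3) of 401. The differences were not tested.

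The share of sites close to a gene is set here beside that among sites shared by both lines. Of the 342 sites, 80 lay within 10 kb (23.4%, 19.0 to 28.2), against 66 of the 195 shared C3H10T1/2 sites (33.8%, 27.2 to 41.0). The difference was -10.5 percentage points. The intervals of the shares overlapped, which does not measure the difference itself, and no p-value is given for it. Within 1 kb it was 6.73% against 11.8% (7.63 to 17.2), again with overlapping intervals. In 3T3-L1, sites of that line alone in the same gene window had 25.6% within 10 kb and 4.22% within 1 kb (n = 782), or 24.4% and 3.27% without 262 sites in dense blocks (n = 520), given side by side only, since the lists were called separately.

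**Figure D1:**
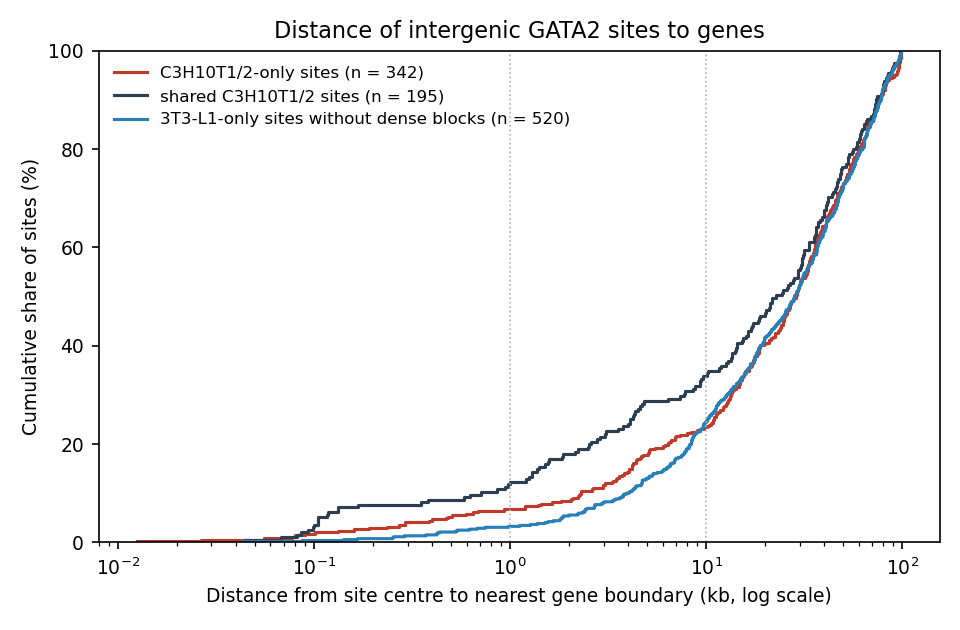
Cumulative share of sites (%) against the distance from the site centre to the nearest gene boundary (kb, log scale), with 1 line for each class of intergenic sites within 100 kb of a gene; dotted lines mark 1 and 10 kb. At 10 kb the line of the 342 C3H10T1/2-only sites stands at 23.4%, that of the 195 shared sites at 33.8% and that of the 520 3T3-L1-only sites at 24.4%.

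The sites had a median width of 179 bp (quartiles 143 and 235, range 95 to 809). The list median was 184 bp, and 160 of the 342 sites (46.8%, 41.4 to 52.2) were at least that wide, against 184 of the 435 C3H10T1/2-only sites inside genes (42.3%, 37.6 to 47.1). That difference of 4.48 points did not pass the test (odds ratio 1.2, 0.892 to 1.61; two-sided Fisher's exact p = 0.217, Benjamini-Hochberg adjusted over 5 tests p = 0.217). The shared sites of the same gene window were wider in this list, with a median of 211 bp and 64.1% (56.9 to 70.8) at least as wide as the list median, an interval apart from that of the 342 sites. That difference was not tested, and sharing was itself defined by overlap. The 5 widest sites had as nearest genes Ap1s3 (809 bp), Psmg1 (542 bp), the glutamate transporter gene Slc1a3 (539 bp), Snx13 (467 bp) and Ice1 (441 bp). Those 5 lay 29.3 to 99.0 kb from their gene, so the widest sites were not the ones at gene boundaries, where the median width within 1 kb was 150 bp.

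Having no overlap did not mean being far from 3T3-L1 binding. The nearest 3T3-L1 peak centre lay a median of 184 kb away. It was within 100 kb for 131 sites (38.3%, 33.1 to 43.7), within 10 kb for 30 (8.77%, 6.0 to 12.3) and within 1 kb for 9, while 46 sites (13.5%, 10.0 to 17.5) had none within 1000 kb. By distance to the gene, the median distance to a 3T3-L1 peak was 382 kb for sites within 1 kb of a gene, 317 and 292 kb in the next 2 bands, and 69.3 and 144 kb in the outer 2. The share within 10 kb was 5.75% (3.75 to 8.37) for the 435 C3H10T1/2-only sites inside genes, 3.02 points lower. The intervals overlapped, which does not measure the difference itself. Among the 221 C3H10T1/2-only intergenic sites beyond 100 kb of a gene, 8.14% (4.9 to 12.6) had a 3T3-L1 peak within 10 kb. For 40.3% (33.7 to 47.1) of that class it was within 100 kb, and the differences from that class were not tested.

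The closest case lay in the Ly6 gene cluster on chromosome 15. The site at 75085549 to 75085744, 22.5 kb from Ly6c2, ended 34 bp short of a 3T3-L1 peak at 75085779 to 75085828. A second C3H10T1/2 peak there, at 75086866 to 75087052, overlapped a 3T3-L1 peak by 55 bp and so was counted as shared. That was the smallest overlap among the 195 shared sites, and the centres of those peaks were 8 bp apart. Other close sites were near Gas1, which encodes a growth arrest protein and Hedgehog coreceptor (gap of 92 bp), the cystatin C gene Cst3 (177 bp) and the prostaglandin F receptor gene Ptgfr (182 bp). At these loci the lines had peaks side by side whose edges did not meet.

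**Figure D2:**
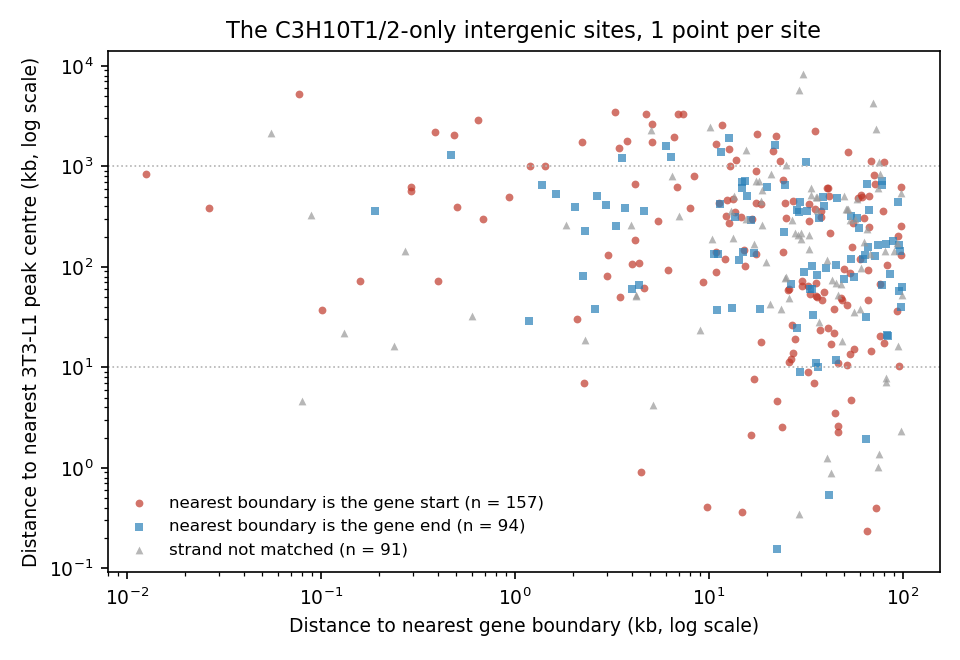
Distance to the nearest 3T3-L1 peak centre (kb, log scale) against distance to the nearest gene boundary (kb, log scale) for each of the 342 sites; colour and shape give which boundary of the nearest gene was closest, and dotted lines mark 10 and 1000 kb. Of the 342 points, 30 lie at or below the 10 kb line and 46 above the 1000 kb line.

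Some sites came in small groups. With centres chained at up to 10 kb, 298 sites stood alone and 44 formed 19 groups, 13 of 2 sites and 6 of 3. Another C3H10T1/2 peak of any class lay within 10 kb of 58 sites (17.0%, 13.1 to 21.4), against 50 of 435 inside genes (11.5%, 8.65 to 14.9). It was 16.9% (11.9 to 22.9) for the shared sites of the same gene window and 21.3% (16.1 to 27.3) for the 221 C3H10T1/2-only sites beyond 100 kb, and the differences from these other intergenic classes were not tested. The difference from sites inside genes, 5.46 points, did not pass the adjusted test (odds ratio 1.57, 1.02 to 2.42; exact p = 0.0363, adjusted p = 0.0897). It passed with a 50% overlap rule (5.95 points, exact test adjusted p = 0.0313) and when gene bodies of every RefSeq gene type were used (6.48 points, adjusted p = 0.0318). It did not pass when a 3T3-L1 peak centre within 1 kb counted as shared (4.2 points, exact test adjusted p = 0.159). Nor did it pass with a gene boundary within 50 kb (5.77 points, exact test adjusted p = 0.0931). With only peaks at least as wide as the list median it fell to 1.33 points (exact test adjusted p = 1.0). The adjustment included the 3 tests on values that chose the sites, so whether this difference passes depends in part on them. Sites of a group count each other as neighbours and are not independent, which the intervals and p-values here do not allow for. With neighbouring peaks counted once, this comparison was not run.

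Of the 21631 protein-coding genes, 827 (3.82%) had at least 1 of these sites within 100 kb, 110 (0.509%) within 10 kb, and 299 (1.38%) were the nearest gene of a site. Of the 827, 733 had 1 such site, 76 had 2, 15 had 3 and 3 had 4. Csf1 and Mroh9 were among the genes with 4 sites. The genes next in order by symbol, each with 3 sites, were 1700012B07Rik, Ahcyl1, Cd93, Cdca2, Cxadr, Eps8l3 and Gprin3. Neighbouring genes count the same sites, as Csf1, Ahcyl1 and Eps8l3 do.

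Csf1 encodes macrophage colony-stimulating factor, the growth factor of macrophages and osteoclast precursors, and lies on chromosome 3 at 107741048 to 107760469 on the minus strand. Of its sites, 3 lay 33.2, 35.8 and 36.3 kb beyond its start, within 3.25 kb of each other. The other lay 33.6 kb beyond its end, 10.9 kb from Ahcyl1. All 4 fell inside the annotated long non-coding RNA gene Gm40121, and the only 3T3-L1 peak within 100 kb of Csf1 was 86.6 kb from it. Cxadr, the coxsackie and adenovirus receptor gene, had 3 sites at 35.6, 36.0 and 58.2 kb with the nearest 3T3-L1 peak 529 kb from the gene.

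Paqr8 encodes a membrane progestin receptor (chromosome 1, 20890548 to 20939650, plus strand) and had 3 sites at 4.77, 6.96 and 7.34 kb before its start, spanning 2.82 kb. The closest 3T3-L1 peak to the gene was 3300 kb off. Paqr8 was the only gene with 3 sites within 10 kb.

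Prrx1, a homeobox factor that marks limb and fat mesenchymal precursors, lies on chromosome 1 at 163245119 to 163315145 on the minus strand. It had sites 4.61 and 41.2 kb before its start and 36.2 kb beyond its end. A shared site, the only 3T3-L1 peak within 100 kb, lay 65.7 kb before its start. From the last of its own sites toward Mroh9, a run of 5 sites with gaps of at most 100 kb covered 96.4 kb (163112611 to 163209041) and held 1 shared site besides. A second run of this kind, the 4 sites at Csf1 and Ahcyl1, covered 89.5 kb and held no 3T3-L1 peak. These were the only runs of 4 or more sites, a threshold set after the values were seen.

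**Figure D3:**
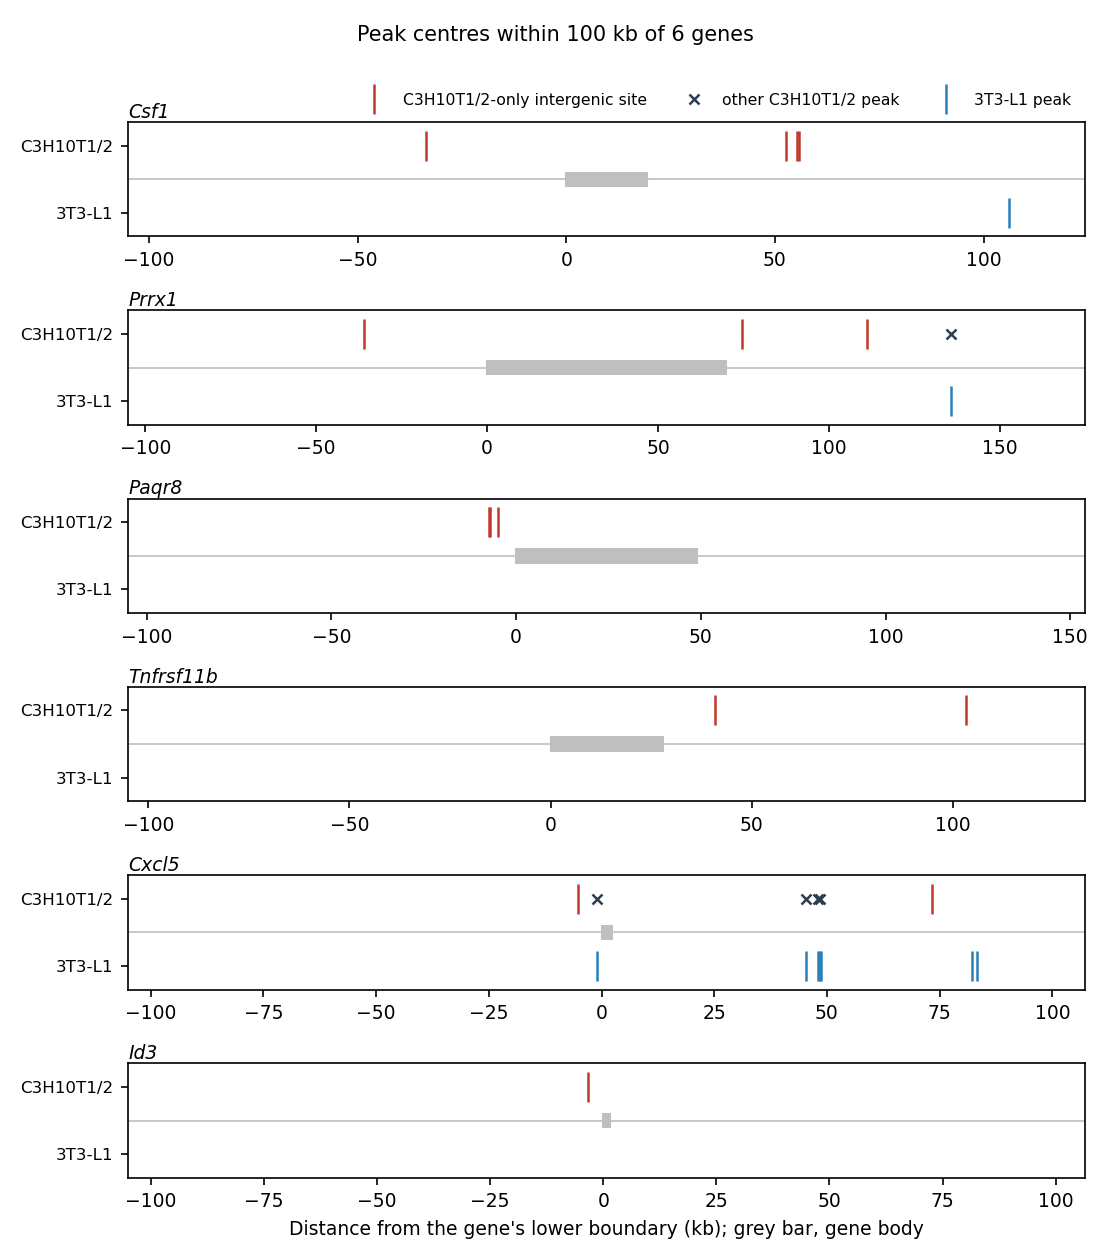
Peak centres within 100 kb of 6 genes, by distance from the gene's lower boundary (kb); the grey bar is the gene body, red lines above it are C3H10T1/2-only intergenic sites, crosses are other C3H10T1/2 peaks and blue lines below it are 3T3-L1 peaks. Paqr8, Tnfrsf11b and Id3 have sites in the upper row and none in the lower row, and Cxcl5 has 4 crosses and 7 blue lines.

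Many of the genes beside these sites also had 3T3-L1 peaks nearby. Of the 299 nearest genes, 116 (38.8%, 33.2 to 44.6) lay within 100 kb of a 3T3-L1 peak, as did 13.9% of all protein-coding genes. A shared site lay within 100 kb of 66 of them (22.1%, 17.5 to 27.2), and 41 (13.7%, 10.0 to 18.1) had no 3T3-L1 peak within 1000 kb. A C3H10T1/2 peak also lay in the body of 36 of the 299 (interval 8.58 to 16.3%), against 2.59% of all genes. Mecom had 2 C3H10T1/2 peaks in its body, where a 3T3-L1 peak also lay. Genes were matched neither for length nor for the number of neighbours in these shares, and they were not tested.

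Lists of genes for lineages and pathways were counted against the 3.82% of all genes with a site within 100 kb. These 19 lists hold 543 different genes. A site counted for a list gene can lie nearer to another gene. Examples are the sites of Eng (nearest gene Ak1), Il1rn (Il1f10), Fzd2 (Meioc), Comp (Klhl26) and Mymk (Slc2a6). Others are those of Fmod (nearest gene Btg2), Egr2 (Ado), Vim (Cubn) and Myh9 (Txn2). The median distance from a gene to its nearest site was 3200 kb over all genes. With only the sites at least as wide as the list median, 400 genes in place of 827 had a site within 100 kb. The counts then fell to 0 for the myogenesis and chondrogenesis lists and to 1 for osteogenesis and inflammatory mediators. They fell to 2 for the extracellular matrix, the BMP and TGF-beta, and the actin and YAP lists. The adipogenesis, Wnt and mesenchymal precursor lists kept 3 each, Notch and Hedgehog kept 2, and nuclear receptors had 4 in place of 5. No list was tested for enrichment, and the intervals treat genes as independent, although neighbours can share a site.

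Among BMP and TGF-beta signalling genes, which steer precursor cells toward bone, cartilage and fat, 4 of 41 had a site within 100 kb (9.76%, 2.72 to 23.1). All 4 had it within 10 kb, where the share over all genes was 0.509%. The median distance over the list was 1970 kb. Bmpr1a encodes a BMP receptor, and its site (chromosome 14, 34508222 to 34508357) lay 4.95 kb before its start, though 9230112D13Rik was closer. The site of Ltbp2, whose product belongs to the latent TGF-beta binding proteins, was 242 bp wide, lay 0.485 kb before the gene's start and fell in the long non-coding RNA gene D030025P21Rik. Id1 and Id3 encode inhibitors of bHLH factors induced by BMPs, with sites of 314 bp and 175 bp at 4.2 and 3.45 kb, the latter before the start of Id3. Measured from the site, the closest 3T3-L1 peak was 256 kb off at Bmpr1a, 2070 kb at Ltbp2, 1540 kb at Id3 and 51.1 kb at Id1. The lists were drawn up with earlier results of these data known, so their counts are no independent support.

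Extracellular matrix genes had 7 of 42 members with a site within 100 kb (16.7%, 6.97 to 31.4; median distance 2260 kb), and none within 10 kb. The 7 rested on 6 sites, since Col3a1 and Col5a2, which encode fibrillar collagen chains, share the site at 45299330 to 45299477 on chromosome 1, 12.1 kb before the start of Col3a1. Col5a1 had a site 51.3 kb before its start. The small proteoglycan genes Dcn and Fmod had sites at 82.1 and 44.7 kb, the fibrillin gene Fbn2 at 26.8 kb and the aggrecanase gene Adamts5 at 98.8 kb. Col3a1, Col5a2, Fmod and Fbn2 had no 3T3-L1 peak within 100 kb, while Dcn had 4. Over the whole list 15 of 42 genes had such a peak, against 13.9% of all protein-coding genes.

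Osteogenesis genes had 4 of 24 with a site (16.7%, 4.74 to 37.4; median distance 1680 kb). Tnfrsf11b encodes osteoprotegerin, the decoy receptor that limits osteoclast formation, and had sites at 13.0 and 75.3 kb of 328 and 260 bp. Spp1 and Ibsp, which encode the bone matrix proteins osteopontin and bone sialoprotein, share a site (chromosome 5, 104399752 to 104399889) 35.3 kb before the start of Spp1. Mef2c, a factor of muscle and bone, had a site 35.1 kb before its start and its nearest 3T3-L1 peak 2280 kb away. None of the 4 had a 3T3-L1 peak within 100 kb. Over the whole list 5 of 24 genes had such a peak, against 13.9% of all protein-coding genes, so most genes have none.

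Chondrogenesis genes had 2 of 16 (12.5%, 1.55 to 38.3; median distance 1830 kb). The master regulator of cartilage Sox9 had a site 63.0 kb above its higher coordinate (chromosome 11, 112850723 to 112850864), and the cartilage matrix gene Comp one at 65.8 kb. Myogenesis genes had 3 of 16 (18.8%, 4.05 to 45.6; median 2430 kb), the muscle factor genes Mef2a (67.0 kb) and Mef2c and the myoblast fusion gene Mymk (32.9 kb). Neither list had a site within 10 kb of a gene, and none of these 5 genes had a 3T3-L1 peak within 100 kb. Over the whole lists, 2 of 16 chondrogenesis and 3 of 16 myogenesis genes had such a peak, against 13.9% of all protein-coding genes.

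Adipogenesis genes had 3 of 29 (10.3%, 2.19 to 27.4; median distance 2830 kb). Rxra, whose product is the partner of the fat cell regulator PPARG, had a site 1.19 kb beyond its end and another 71.8 kb beyond it, the latter the one nearest to Col5a1. Pparg had a site 43.9 kb before its start, nearer to its neighbour Syn2, and 4 peaks of 3T3-L1 alone in its body or within 100 kb. Egr2, an early regulator of fat cell formation, had a site at 65.6 kb and no 3T3-L1 peak within 100 kb.

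Nuclear receptor genes had 5 of 37 (13.5%, 4.54 to 28.8; median 1670 kb), which were Pparg, Rxra, Nr2f2, Nr3c1 and Esrrg. Nr3c1, the glucocorticoid receptor gene, had sites 20.9 kb below and 60.2 kb above its body. Nr2f2, which encodes COUP-TFII, had a site 40.2 kb beyond its end and Esrrg one 68.5 kb before its start, with the nearest 3T3-L1 peak 1200 kb from the gene.

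Inflammatory mediators had 5 of 33 (15.2%, 5.11 to 31.9; median 1550 kb), and Cxcl5 alone had one within 10 kb. The 4 genes other than Csf1 were Il1rn, which encodes the interleukin-1 receptor antagonist (36.3 kb before its start), and the neutrophil chemokine genes Cxcl1, Cxcl2 and Cxcl5. The chemokine genes share the site at 90832587 to 90832744 on chromosome 5, and Cxcl5 had a further one at 5.15 kb. They had 7 peaks of 3T3-L1 each within 100 kb, so the sites in this cluster stood among peaks of both lines.

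Actin cytoskeleton and YAP target genes had 5 of 34 (14.7%, 4.95 to 31.1; median 4040 kb) and none within 10 kb. Myh10, a nonmuscle myosin heavy chain gene, had its site 16.6 kb before its start and Myh9, another, had 2 at 39.6 and 46.2 kb before its start. Ccn1, a matrix protein gene induced by YAP, had one 35.0 kb before its start, Tpm1 one at 53.2 kb and the vimentin gene Vim one at 78.1 kb.

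Wnt signalling genes had 3 of 42 (7.14%, 1.5 to 19.5; median 1500 kb). Of these, 2 were R-spondin genes, whose secreted products strengthen Wnt signals: Rspo2 at 3.95 kb and Rspo3 at 18.6 kb, with the nearest 3T3-L1 peak 267 and 467 kb from the gene. The third was the receptor gene Fzd2 at 36.0 kb. Mesenchymal precursor markers had 3 of 29 (10.3%, 2.19 to 27.4; median 1600 kb), which were Prrx1, Ly6a (87.6 kb, through the site beside Ly6c2) and the endoglin gene Eng (25.2 kb before its start).

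Notch and Hedgehog genes had 2 of 23 (8.7%), the ligand gene Dll4 (37.1 kb, through the site at Vps18) and the Hedgehog receptor gene Ptch1 (79.2 kb before its start). AP-1 and immediate early genes had 2 of 27 (7.41%), Jun and Egr2. The site at Jun lay 46.4 kb before its start inside the antisense gene Junos, with a 3T3-L1 peak 2.28 kb from the site. Blood and endothelial GATA2 targets had 1 of 25 (4.0%), Eng, cell cycle and p53 genes 1 of 26 (3.85%), Cdkn1a, and growth factor genes 1 of 32 (3.12%), each close to the 3.82% of all genes. GATA factors and their cofactors had 0 of 13, which allows a share of up to 24.7% by the exact interval. The control lists had 1 of 38 for ribosomal proteins (2.63%) and 2 of 34 for neuronal synapse genes (5.88%).

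**Figure D4:**
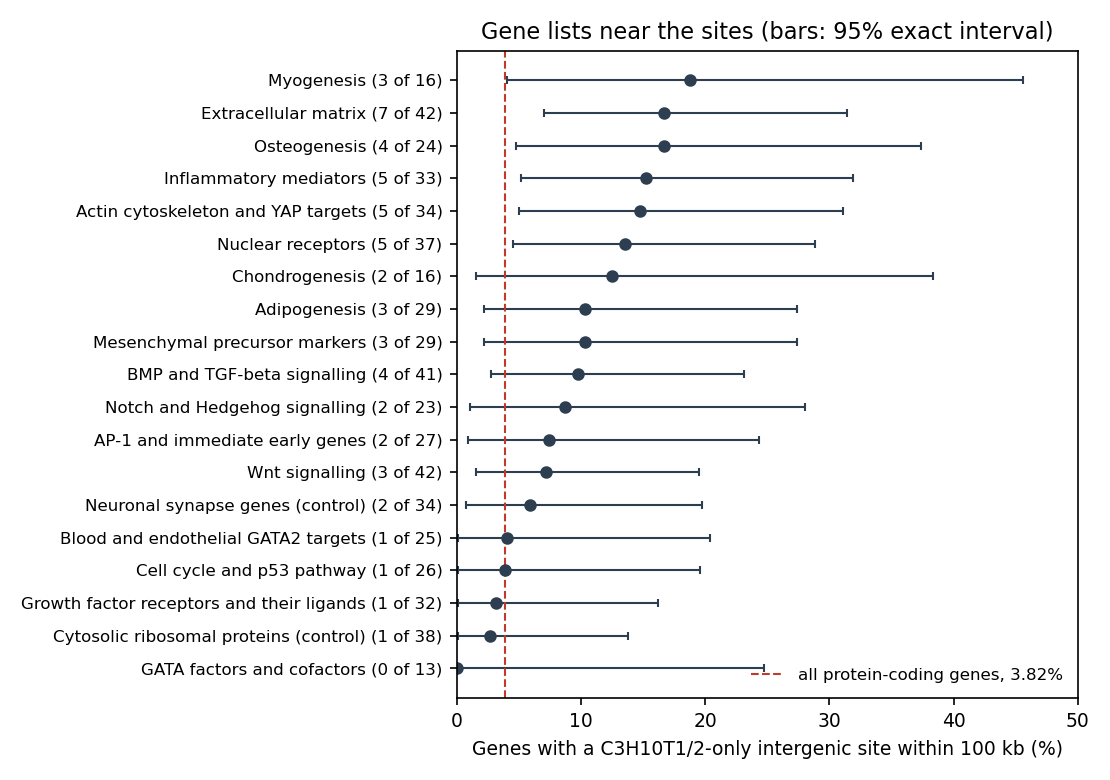
Percent of the genes of each list with a C3H10T1/2-only intergenic site within 100 kb, with 95% exact intervals as bars and the counts beside the names; the dashed line is the 3.82% of all protein-coding genes. The extracellular matrix list stands at 16.7% and the ribosomal protein list at 2.63%.

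Intergenic here means outside protein-coding genes only. The centre of 68 sites (19.9%, 15.8 to 24.5) lay in the body of another RefSeq gene, a long non-coding RNA gene for 65 and a pseudogene alone for 3. These included Trp53cor1 at the site 32.8 kb before the start of Cdkn1a, which encodes the cell cycle inhibitor p21. The hairpin of Mir22 lay 4.88 kb from the site at 75458777 to 75458903 on chromosome 11, and that of Mir21a 9.49 kb from the site at 86574480 to 86574672 on the same chromosome. They were the only miRNA hairpins within 10 kb of a site, a distance chosen after the values were seen.

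The sites were spread over chromosomes 1 to 19 and X. They made up 15.3% to 32.2% of the C3H10T1/2 peaks of a chromosome, lowest on chromosome 8 (11 of 72) and highest on chromosome 12 (19 of 59, interval 20.6 to 45.6). Chromosome 1 held most, with 39 sites of 128 peaks (30.5%, 22.6 to 39.2). The X chromosome held 3.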

How the data were processed

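GATA2 ChIP-seq peak positions in 2 mouse cell lines were analysed as the authors deposited them, 1 list per line with chromosome, start and end and no other column. Per the submitters' processing notes reads were handled with MACS2, bedtools, SAMtools, Bowtie2 and CASAVA 1.8 on build mm10. Thresholds, use of input and pooling are not given in the sources used here, and they set which sites were called. Positions are printed counted from 1.

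Classes, distances and counts were computed with Python 3.11.15, pandas 2.3.3 and SciPy 1.17.1, and tested on simulated peaks with known classes. Genes and promoter windows came from RefSeq tables of GRCm38.p6, and every list symbol matched. The 5 Fisher's exact tests were two-sided and adjusted by the Benjamini-Hochberg method. Of these, 3 used distances or overlaps that had chosen the sites, so their p-values are not printed. They remained in the adjustment of the printed p-values. Intervals are 95% Clopper-Pearson intervals. Dense blocks are runs of at least 8 peaks with gaps of at most 20000 bp. Named genes were those nearest to a site, with most sites, on a list, at the limits of the rule or with the widest sites. The sites and lists were chosen with earlier results of these data known. The motifs other than GATA, the non-coding and miRNA look-ups, the runs of sites, the dense blocks and the genes drawn in the maps were chosen after values were seen. The tests count sites as independent and say nothing of the spread between cultures. Some genes that the naming rule selects are not reported here.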

Additional observations from a re-analysis of the deposited data

How the results depend on the processing

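The number of sites was 317 to 412 under the other definitions of sharing, counting neighbours once (chosen after seeing the data) and every RefSeq gene type, 249 within 50 kb of a gene, and 160 with peaks of at least the median width alone. The 5 tests were refitted 28 times, and outcomes are given only for values that did not choose the sites. The neighbouring-peak difference newly passed the threshold with a 50% overlap (5.95 points) and with every gene type (6.48 points). It did not pass with a 3T3-L1 centre within 1 kb counted as shared (4.2 points) or within 50 kb of a gene (5.77 points). The width difference passed in no setting where it was run. With a 50% overlap the 1 kb and 10 kb differences were -6.59 and -12.4 points. These 1 kb and 10 kb values rest on the distances and overlaps that chose the sites and are no support. With the wider peaks alone the neighbouring-peak difference fell from 5.46 to 1.33 points. None changed direction. The genes near a site fell from 827 to 110 within 10 kb, 299 by nearest gene alone and 400 with the wider sites. The list counts moved by over 1.5 times for 17, 11 and 12 of the 19 lists in these settings. The planned test of motifs around peak centres was not run, since no genome sequence was used here. No paired analysis was possible because each line has 1 list without values per library, and leaving out a replicate was not run for the same reason. Depth is unknown, so which sites weaker calling would add to either list was not tested.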
